A study of Mus musculus with 4 samples.

Results

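The genes described here encode the constitutive proteasome, the protein complex that degrades ubiquitin-tagged proteins in every cell. They were taken by name, as all probe sets (groups of probes on the array for 1 transcript) whose platform annotation gave 1 symbol beginning with Psma, Psmb, Psmc or Psmd and ending in a number. The inducible and tissue-specific catalytic genes Psmb8, Psmb9, Psmb10 and Psmb11 were left out. The rule gave 73 probe sets of 35 genes, out of 45101 probe sets and 18193 genes on the array. The rule used no measured value, though the members were chosen with earlier results of these data known.

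The proteasome has a barrel-shaped core particle, called 20S, made of outer alpha rings (Psma genes) that control entry and inner beta rings (Psmb genes) that hold the protein-cutting sites. A regulatory particle, called 19S, caps the barrel. Its base holds a ring of ATPases (Psmc genes) that unfold substrates, and its lid (most Psmd genes) removes the ubiquitin chain. Activated T cells use this machinery to turn over signalling proteins and cell cycle regulators and to make peptides for MHC class I.

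Expression was measured on 4 arrays, 1 for each group of mouse CD4+ T cells sorted as naive cells from spleen and lymph nodes. Wild type cells were C57BL/6J. STAT4-deficient cells (STAT4KO) came from the strain C57BL6-STAT4<tm1> and STAT6-deficient cells (STAT6KO) from B6.129S2©-STAT6<tm1Gru>/J, which carry germline disruptions of the transcription factors downstream of interleukin-12 and interleukin-4. Th1 cultures, wild type or STAT4-deficient, were activated for 3 days on antibodies to CD3 and CD28 with interleukin-12 and an antibody that blocks interleukin-4. Th2 cultures, wild type or STAT6-deficient, had interleukin-4 and a block of interferon gamma in their place. All cultures then spent 4 days in interleukin-2 with the same polarizing cytokine, and were restimulated on day 7 for 2 h through CD3 and CD28 with that cytokine. Mouse age, the number of mice behind each array and any pooling are not given in the sources used here.

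Each group had 1 array and no replicate, so nothing could be tested and every difference describes these arrays. Values are log2 expression. Where 4 values of a gene follow one another without labels, they are those of Th1 cells, first wild type and then lacking STAT4, followed by those of Th2 cells, first wild type and then lacking STAT6. A gene was read from its brightest probe set (its main probe set), and it was called higher or lower where 2 arrays differed by at least 1 log2 unit (2-fold) and the brighter one reached 5.82, the median of all probe sets. The T cell list reached that minimum with 8 of 8 measured markers on each array. Of the myeloid and dendritic markers, 4 of 7 reached it on the Th2 wild type array and 2 or 3 on the others. Their summed linear signal was 739 in Th2 wild type and from 332 to 448 on the other arrays. Among them Adgre1 was highest in Th2 wild type cells (8.26, and at most 5.92 elsewhere), while Lyz2 read 4.88 there and 6.28 in Th1 wild type cells. The CD8 and NK list (460 against 167 to 272) and the mast cell and basophil list (448 against 108 to 285) also had their highest sums on the Th2 wild type array. Of their genes only Cd8b1 (8.54) and Cpa3 (8.64) were highest there. In Th2 and Th1 wild type cells Cd8a read 6.14 and 6.16, and Ncr1 4.14 and 4.96. Kit read 3.95 and 6.72 in the same order, Mcpt8 4.48 and 5.27, and Fcer1a 3.36 and 4.04. The part of other cells in the results was not tested. In bulk RNA, fewer cells of a type and less RNA per cell cannot be told apart. The Stat4 signal was 11.45 with and 9.20 without intact STAT4 in Th1 cells, while the Stat6 signal was 10.93 with and 10.92 without intact STAT6 in Th2 cells. Whether these probes lie in the deleted parts is not known here.

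Nearly all proteasome genes had signal on all arrays, and most were highest in Th2 wild type cells. Of the 35 genes, 34 reached the minimum on all 4 arrays. The exception was Psma8, an alpha subunit gene known from testis, which read 4.09 and 5.07 in wild type and STAT4-deficient Th1 cells, and 3.77 and 3.49 in wild type and STAT6-deficient Th2 cells. It stayed below the minimum throughout and is left out of the counts. Among the other 34, Th2 wild type was the highest array for 26, against 49% of the 9466 genes that reached the minimum on all arrays. Th2 STAT6-deficient was highest for 5 (22% of genes), Th1 wild type for 2 (14.3%) and Th1 STAT4-deficient for 1 (14.6%). The Th2 wild type array was lowest for none of the 34, against 13.4% of those genes. The most frequent order, in 13 genes, ran from wild type to STAT6-deficient Th2 cells, then from wild type to STAT4-deficient Th1 cells, highest first. Without the Th2 STAT6-deficient array, 31 of 34 were highest in Th2 wild type, against 59.9% of genes.

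**Figure D1:**
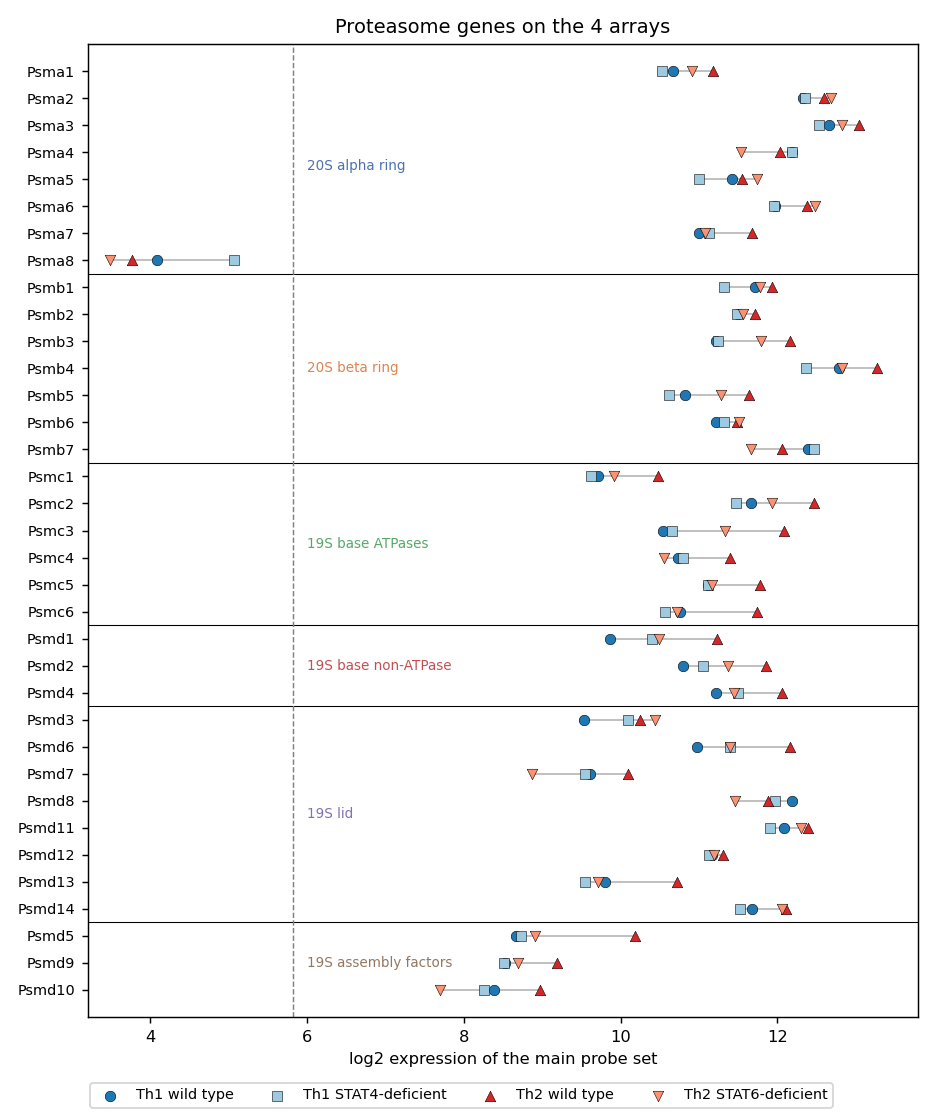
Log2 expression of the main probe set of each of the 35 proteasome genes (rows, grouped by subcomplex) on the 4 arrays (symbols); the dashed line is the level minimum of 5.82. Psma8 lies below the line on all arrays, and the triangle of Th2 wild type is the rightmost symbol for 26 of the other 34 genes.

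Loss of STAT4 left the proteasome genes near their wild type level. None of 34 was called, higher or lower, in the STAT4-deficient Th1 array, where 11.5% of the 12608 genes at the minimum were called (6.18% higher and 5.34% lower). None passed 1.5-fold either, where 19.2% of genes were higher and 12.6% lower. Of 34 genes, 21 were below wild type, against 41.8% of genes, but this count ran from 29 after median centring (53% of genes) to 12 after loess (48.3%), 6 after quantile normalization (44.5%) and 3 with hybridization controls (19.1%). Differences ran from −0.42 to 0.57 log2 units with a median of −0.01, and their interquartile range was 0.24 against 0.75 over all genes tested. The median proteasome gene read from 11.12 to 11.74 on the arrays and the median of all genes from 6.40 to 6.71. In no comparison were the genes tested matched for level, so its part in the spread and call shares was not tested. The median gene of the array pair differed by 0.13, so the proteasome median stood 0.14 lower than that, and 28 of 34 genes lay below the median gene. The sign of the proteasome median depended on the scaling: it was −0.18 after median centring and 0.38 with the hybridization controls as the reference. The median of all genes was −0.04 and 0.515 under these, so the proteasome median stayed below it. After loess and quantile normalization it lay above instead, at 0.16 against 0.02 and 0.23 against 0.07. None of the 4 other scalings gave a called gene.

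Loss of STAT6 went with lower signal for most proteasome genes, and the signal of most other genes was lower too. Of 34 genes, 29 were below wild type and 5 above, and 65.7% of all 11490 genes tested were below. The 29 became 22 after median centring (49.6% of genes), 25 after loess (50.8%), 26 after quantile normalization (52%) and 32 with hybridization controls (72.5%). As deposited, the median was −0.46, against −0.30 for all genes, and the interquartile range 0.56 against 1.04. By the 2-fold rule 5 were lower and none higher, against 19.5% of all genes lower and 7.01% higher, so the called share of proteasome genes did not exceed the background (26.5% in either direction). The 5 were Psmc6, Psmd7, Psmd13, Psmd5 and Psmd10, all of the 19S particle or its assembly factors. These groups hold 17 and 3 of the 34 genes. The mean levels of the 5 over the arrays were 10.94, 9.53, 9.95, 9.12 and 8.32 in that order. At 1.5-fold 12 were lower (35.2% of genes) and none higher (13.5%). All the 2-fold calls held with hybridization controls. After median centring none passed, with differences from −0.97 (Psmd5 and Psmd10) to −0.70 (Psmd13). After loess none passed either, from −0.95 (Psmd5) to −0.74 (Psmd13), and after quantile normalization Psmd5 alone passed, just beyond the limit. All 5 were below wild type under each of these scalings, and with the mean of probe sets Psmd7 was not (0.30). On this array the beta-actin control read 2.08 log2 units higher at its 3′ than at its 5′ end, against 0.85 on the Th2 wild type array and 0.32 to 0.66 on the Th1 arrays. The part of RNA quality in these differences was not tested.

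Between the wild types, proteasome genes had lower signal in Th1 than in Th2 cells. Of 34 genes, 31 were lower in Th1, against 65.4% of the 12111 genes tested. The 31 became 27 after median centring (55.4% of genes), 23 after loess (49.3%), 29 after quantile normalization (49.8%) and 34 with hybridization controls (78.4%). As deposited, the median was −0.62 against −0.37, with an interquartile range of 0.55 against 1.28. By the 2-fold rule 5 were lower and none higher, against 25.4% and 8.14% of all genes (33.5% in either direction). The 5 were Psmc3, Psmd5, Psmd1, Psmd6 and Psmd2. At 1.5-fold 18 were lower (40.9% of genes) and none higher (15.8%). Psmc3 was called under all 4 other scalings, while Psmd2 and Psmd6 were called under 1 of them. This comparison shares the Th2 wild type array with that of STAT6 loss and the Th1 wild type array with that of STAT4 loss, so their values are not independent.

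The remaining pair, STAT4-deficient Th1 against STAT6-deficient Th2 cells, had 26 of 34 genes lower in Th1, against 49.1% of genes, with a median of −0.19 against 0.02 and an interquartile range of 0.42 against 1.10. Its arrays are also those of the losses. The majority turned over with the scaling: 14 were lower after loess (47.9% of genes) and 12 after quantile normalization (44.7%). No proteasome gene passed 2-fold in either direction, where 22.9% of genes did (12.6% higher and 10.3% lower). At 1.5-fold 3 were higher (25.4% of genes) and 3 lower (22%). Psmb7 (0.80), Psmd7 (0.68) and Psma4 (0.64) were furthest above 0 as log2 differences, and Psma5 (−0.74), Psmc3 (−0.67) and Psmb5 (−0.66) furthest below. The median turned to 0.0349 after loess and 0.0565 after quantile normalization.

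**Figure D2:**
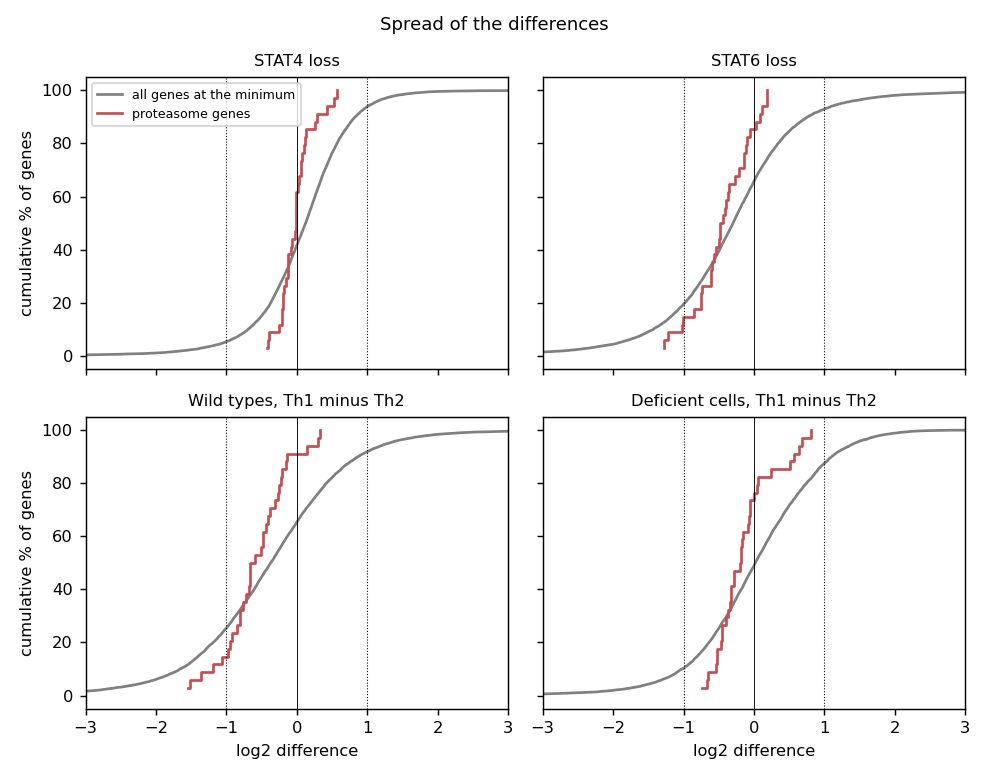
Cumulative percent of genes (y axis) against the log2 difference (x axis) for the proteasome genes (red steps, 34 genes) and for all genes at the level minimum (grey) in the 4 comparisons; dotted lines mark 2-fold. The red steps are steeper than the grey curve in each panel, and in STAT4 loss they lie wholly between −0.42 and 0.57. The grey genes are not matched to the proteasome genes for level.

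The core particle and the regulatory particle had different medians. In STAT6 loss the median of the 17 genes of the 19S particle (assembly factors apart) was −0.61, against −0.24 for the 14 genes of the 20S core at the minimum. Between the wild types these medians were −0.77 and −0.32. In STAT4 loss they were −0.03 and −0.01. Between the deficient arrays the order was the other way, at −0.15 for the 19S particle and −0.35 for the core. A constant taken from each array cannot change such a contrast, so that only loess and quantile normalization bear on it. Under these the 19S minus 20S difference was −0.33 and −0.40 in STAT6 loss, −0.24 and −0.27 between the wild types, and 0.20 and 0.19 between the deficient arrays. It did depend on the probe sets. With the mean of all probe sets of a gene, the 19S median was 0.36 below in STAT6 loss. It was 0.04 above between the wild types and 0.56 above between the deficient arrays. Mean levels of the main probe sets ran from 10.82 to 12.81 in the core and from 9.53 to 12.17 in the 19S particle. The part of level in the contrast was not tested.

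**Figure D3:**
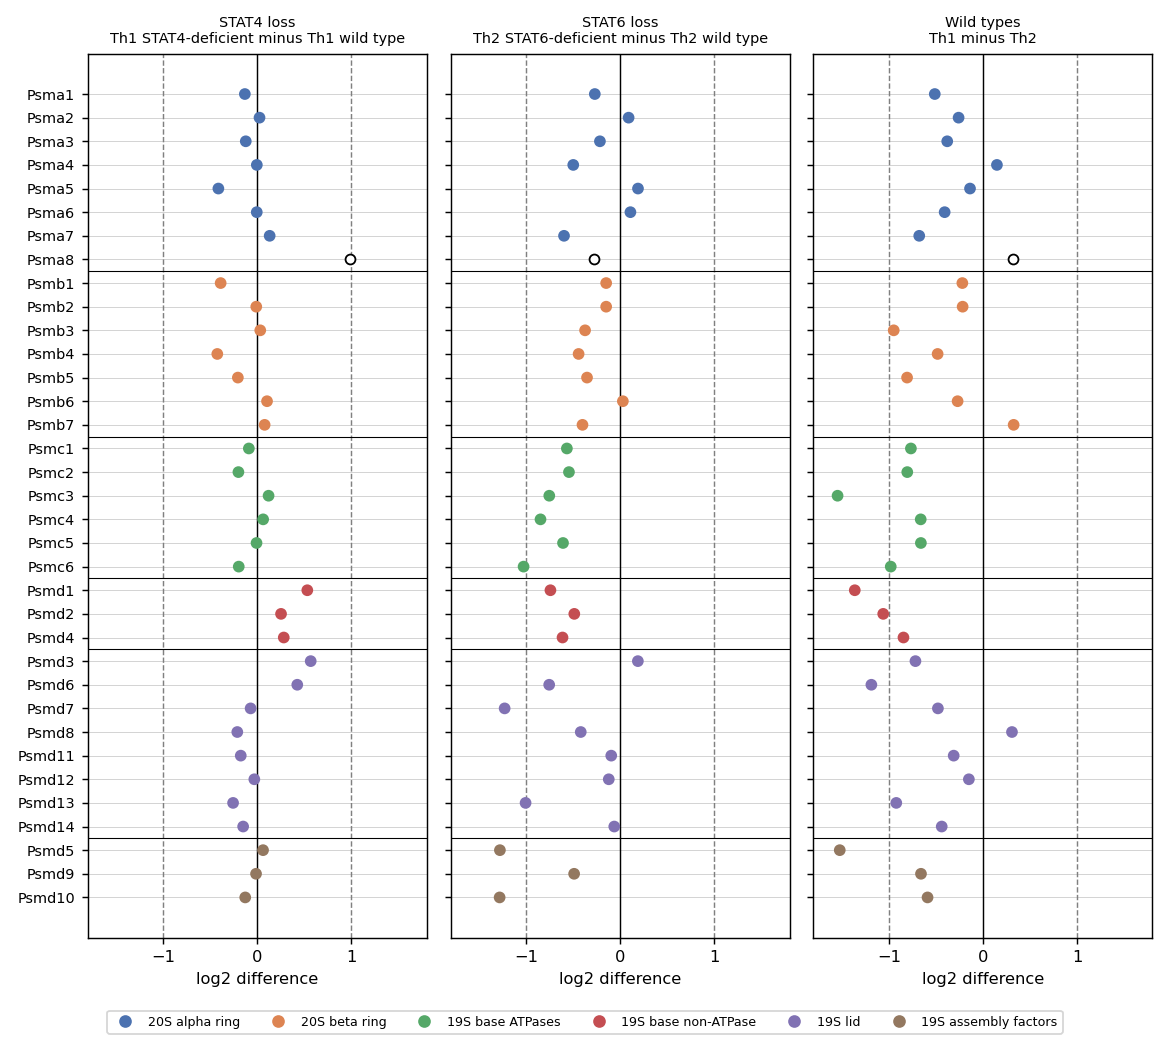
Log2 difference of each proteasome gene (rows, coloured by subcomplex) in STAT4 loss, STAT6 loss and the wild type comparison; dashed lines mark 2-fold and open circles a gene below the level minimum. The 6 ATPase genes and 3 other base genes all lie left of 0 in STAT6 loss and between the wild types, while the STAT4 panel is centred near 0.

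No alpha ring gene was called. Psma1 to Psma7 had medians of −0.00 in STAT4 loss, −0.21 in STAT6 loss and −0.38 between the wild types. Psma4, whose subunit helps to close the entry gate, read 12.19 and 12.18 in wild type and STAT4-deficient Th1 cells, and 12.04 and 11.54 in wild type and STAT6-deficient Th2 cells. It was 1 of only 3 members at the minimum, with Psmb7 and Psmd8, that were higher in Th1 than in Th2 wild type cells. Psma5 read 11.42, 11.00, 11.55 and 11.74 in the same order, with its highest value on the STAT6-deficient array, and its second brightest probe set differed by 0.40 in STAT4 loss where the main one differed by −0.41. Psma7 read 10.99, 11.13, 11.67 and 11.08. Th2 wild type stood apart there, and the other arrays lay within 0.13 of one another.

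Of the beta ring genes, the 3 that encode the cutting subunits did not share 1 pattern. Psmb5, which encodes the chymotrypsin-like subunit that bortezomib inhibits, read 10.83 and 10.62 in wild type and STAT4-deficient Th1 cells, and 11.63 and 11.28 in wild type and STAT6-deficient Th2 cells. Both Th2 arrays were above both Th1 arrays, with a difference of −0.81 between the wild types. Psmb6, for the caspase-like subunit, read 11.21, 11.32, 11.48 and 11.51 and covered only 0.30 log2 units over the 4 arrays. Psmb7, for the trypsin-like subunit, ran the other way, at 12.39, 12.47, 12.06 and 11.66. Both Th1 arrays were above both Th2 arrays, and its 4 values lay further from the median profile of the proteasome genes than those of any other member.

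The structural beta genes also stayed below 2-fold. Psmb3 read 11.22 and 11.25 in wild type and STAT4-deficient Th1 cells, and 12.16 and 11.79 in wild type and STAT6-deficient Th2 cells, the largest difference between the wild types in the core particle (−0.95). Psmb4 (−0.42) and Psmb1 (−0.39) were, with Psma5, the members furthest below wild type in STAT4 loss. Psmb2 covered 0.23 log2 units over the 4 arrays. In the immunoproteasome, the inducible form that replaces the cutting subunits, Psmb8 read 11.17, 10.98, 12.45 and 12.35, Psmb9 10.54, 10.75, 11.32 and 11.43, and Psmb10 10.84, 10.33, 10.64 and 11.40. None of these passed 2-fold in either loss, where 11.5% (STAT4) and 26.5% (STAT6) of all genes did. Psmb8 differed by −1.28 between the wild types, where 25.4% of genes were called lower.

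The 6 ATPase genes differed in 1 direction in both comparisons with Th2 wild type cells. On their main probe sets all were lower without STAT6, from −1.02 to −0.54, and lower in Th1 than in Th2 wild type cells, from −1.54 to −0.66. In STAT4 loss they stayed between −0.20 and 0.12. Psmc3 had the largest difference of any proteasome gene between the wild types: it read 10.54 and 10.66 in wild type and STAT4-deficient Th1 cells, and 12.08 and 11.33 in wild type and STAT6-deficient Th2 cells, 2.92-fold apart in the wild types. Both Th1 values lay below both Th2 values. Psmc6 read 10.76, 10.56, 11.74 and 10.71, so that Th2 wild type stood 2.03-fold above STAT6-deficient cells and the other arrays lay close together. Its other probe sets at the minimum differed by −0.82 and −2.01 in STAT6 loss, on the same side. For Psmc4 the main probe set differed by 0.06 in STAT4 loss and the other by −0.87. In STAT6 loss the second brightest probe sets of Psmc2 and Psmc4, with mean levels of 11.6 and 10.2, were near wild type (−0.0034 and −0.0559).

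The base also holds the scaffold and receptor subunits Psmd1, Psmd2 and Psmd4. As deposited, theirs was the only group in which the main probe set of every gene was above wild type in STAT4 loss. With hybridization controls only 3 of the 34 genes, Psma5, Psmb1 and Psmb4, were below wild type, so every 19S group was then wholly above. Psmd2 encodes the scaffold on which ubiquitin shuttle proteins dock, and read 10.79 and 11.04 in wild type and STAT4-deficient Th1 cells, and 11.85 and 11.36 in wild type and STAT6-deficient Th2 cells. Psmd1, its partner scaffold gene, read 9.87, 10.40, 11.23 and 10.49. Both had their lowest value in Th1 wild type cells, 2.08-fold and 2.57-fold below Th2 wild type. Psmd4, which encodes a subunit that binds ubiquitin chains, read 11.21, 11.49, 12.06 and 11.44 on its main probe set. Its 3 probe sets disagreed in STAT6 loss, from −1.27 to 0.52, and in STAT4 loss, from −0.24 to 0.47.

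The lid genes did not share 1 pattern. Psmd14, which encodes the enzyme that cuts ubiquitin chains from substrates, read 11.68 and 11.53 in wild type and STAT4-deficient Th1 cells, and 12.11 and 12.05 in wild type and STAT6-deficient Th2 cells, with the Th2 arrays close together. Psmd7 encodes its dimer partner and read 9.61, 9.54, 10.09 and 8.87. In STAT6 loss Psmd14 differed by −0.06 and Psmd7 by −1.23, but a probe set of Psmd7 with a lower mean level differed by 1.94. On the STAT6-deficient array that probe set read 9.73, above the 8.87 of the main one. Psmd12 was the steadiest gene of all, within 0.18 log2 units over the 4 arrays, and Psmd11, whose subunit clamps the lid to the core, covered 0.49 on its main probe set.

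Psmd6 and Psmd3, structural lid subunits, were above wild type without STAT4, by 0.43 and 0.57. Psmd6 read 10.97, 11.40, 12.15 and 11.40, so that the deficient arrays lay together with the wild types on either side. Its other probe set, at a lower level, differed by −0.25 in STAT4 loss and −0.20 in STAT6 loss, so its higher signal without STAT4 rests on 1 probe set. Psmd3 read 9.53, 10.10, 10.25 and 10.44, and it was the only lid gene above wild type in both losses. Psmd13 read 9.80, 9.54, 10.72 and 9.72, 2.01-fold lower without STAT6, and its other probe sets at the minimum differed by −0.68 and 0.21. Psmd8 was highest in Th1 wild type cells, at 12.19, 11.97, 11.88 and 11.46 in the same order.

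The assembly factors Psmd5, Psmd9 and Psmd10 help to build the ATPase ring and leave before the particle is finished. Psmd5, which binds Psmc1 and Psmc2, read 8.67 and 8.73 in wild type and STAT4-deficient Th1 cells, and 10.19 and 8.91 in wild type and STAT6-deficient Th2 cells. Th2 wild type stood alone, 2.42-fold above STAT6-deficient and 2.87-fold above Th1 wild type cells. Psmd10, also known as the oncoprotein gankyrin, read 8.38, 8.25, 8.97 and 7.69 and was 2.43-fold lower without STAT6. Psmd9, the partner of Psmc3 and Psmc6, read 8.53, 8.51, 9.18 and 8.70 on its main probe set. All 3 were within 0.13 of wild type in STAT4 loss.

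The probe sets of a gene did not always give 1 answer. Of the 73 probe sets 65 reached the minimum on at least 1 array, and 19 of the 35 genes had several. In STAT6 loss the SD between probe sets of 1 proteasome gene was 0.99 log2 units over 17 genes, against 0.65 over all genes. Among probe sets with a mean level of at least 9 it was 0.44, over 11 genes. Of those brighter probe sets 5 of 45 were at least 2-fold lower without STAT6 and none higher. Of 19 dimmer ones, 5 were higher and 2 lower. Among the 5, those of Psma5, Psma6 and Psmd9 reached the minimum only on the STAT6-deficient array. Among the 2, that of Psmc6 reached it only on the Th2 wild type array. In STAT4 loss no probe set at the minimum passed 2-fold, bright or dim. In 11 genes the probe sets at the minimum spread by at least 1 log2 unit in at least 1 of the 4 comparisons. These were Psma1, Psma3, Psma5, Psma6, Psmc4, Psmc6, Psmd4, Psmd7, Psmd9, Psmd11 and Psmd13.

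**Figure D4:**
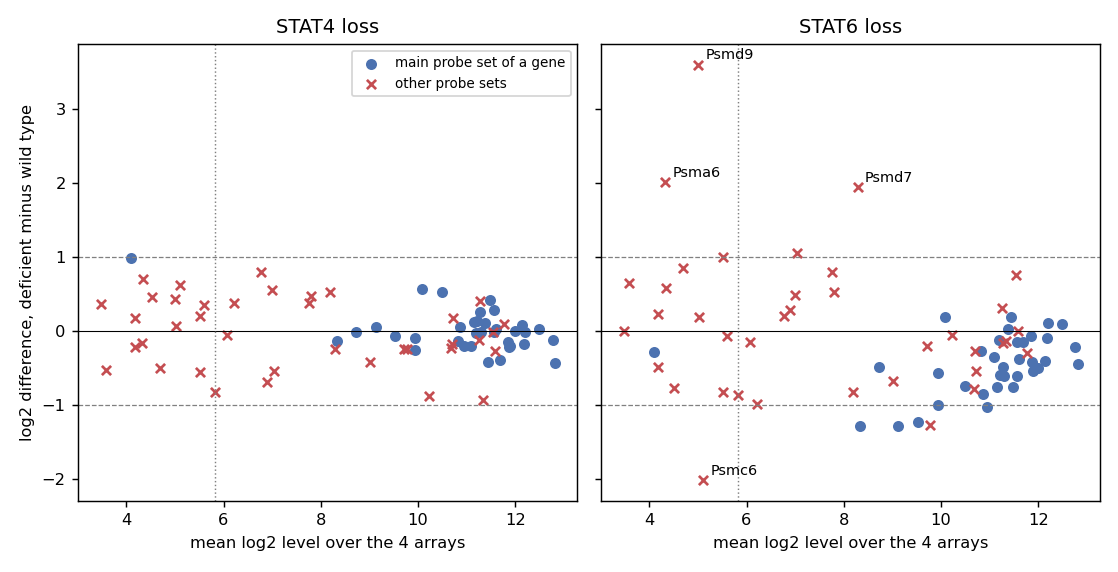
Log2 difference (y axis) against the mean level over the 4 arrays (x axis) for the 73 proteasome probe sets in STAT4 loss and STAT6 loss; circles are the main probe set of a gene, crosses the others, dashed lines 2-fold and the dotted line the level minimum. In STAT6 loss the bright circles lie mostly below 0, and crosses of Psmd9, Psma6 and Psmd7 lie near or above 2.

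The stretches of DNA just upstream of some of these genes are shown because most members were highest on the same array, and because proteasome genes are known targets of the transcription factor encoded by Nfe2l1 through antioxidant response elements. RefSeq (GRCm38.p6) gave promoters for 28 of the 35 genes. The 250 bases before each start are given 5′ to 3′ on the strand of the gene. Capitals mark the antioxidant response element core TGACNNNGC and the ETS core CCGGAAG, on either strand. Psmb5 (chr14:54617996-54618245, minus strand) and Psmb6 (chr11:70525107-70525356, plus strand) are catalytic genes with such an element. The catalytic gene Psmb7 was not among the 28, so its promoter was not searched. Psmc6 (chr14:45329574-45329823, plus strand) holds both motifs. Psmd2 (chr16:20651402-20651651, plus strand) holds an ETS core. Psmd5 (chr2:34870963-34871212, minus strand), with the second largest wild type difference, and Psma4 (chr9:54950609-54950858, plus strand), which ran the other way, hold neither.
Psmb5: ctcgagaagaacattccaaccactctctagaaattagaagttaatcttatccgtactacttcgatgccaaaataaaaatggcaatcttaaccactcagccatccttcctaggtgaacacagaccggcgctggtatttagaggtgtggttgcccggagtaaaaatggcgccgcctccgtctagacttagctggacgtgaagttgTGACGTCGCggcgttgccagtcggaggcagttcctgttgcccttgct
Psmb6: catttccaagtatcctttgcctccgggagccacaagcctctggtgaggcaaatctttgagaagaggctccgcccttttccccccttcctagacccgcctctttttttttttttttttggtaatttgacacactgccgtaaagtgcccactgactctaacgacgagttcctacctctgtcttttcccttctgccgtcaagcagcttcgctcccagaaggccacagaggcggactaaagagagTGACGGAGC
Psmc6: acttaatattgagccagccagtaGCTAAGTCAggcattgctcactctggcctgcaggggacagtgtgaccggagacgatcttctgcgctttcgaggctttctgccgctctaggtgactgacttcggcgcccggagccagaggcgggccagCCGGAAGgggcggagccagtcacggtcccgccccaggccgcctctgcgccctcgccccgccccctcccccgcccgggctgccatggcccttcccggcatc
Psmd2: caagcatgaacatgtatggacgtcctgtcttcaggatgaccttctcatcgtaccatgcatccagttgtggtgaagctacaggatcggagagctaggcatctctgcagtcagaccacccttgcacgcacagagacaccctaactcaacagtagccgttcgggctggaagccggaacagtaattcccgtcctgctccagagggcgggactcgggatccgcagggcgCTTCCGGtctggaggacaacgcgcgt
Psmd5: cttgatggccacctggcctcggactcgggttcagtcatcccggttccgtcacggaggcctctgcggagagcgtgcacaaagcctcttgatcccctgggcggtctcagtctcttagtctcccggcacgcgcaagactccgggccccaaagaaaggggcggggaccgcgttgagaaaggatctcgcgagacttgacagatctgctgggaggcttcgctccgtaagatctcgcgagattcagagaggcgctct
Psma4: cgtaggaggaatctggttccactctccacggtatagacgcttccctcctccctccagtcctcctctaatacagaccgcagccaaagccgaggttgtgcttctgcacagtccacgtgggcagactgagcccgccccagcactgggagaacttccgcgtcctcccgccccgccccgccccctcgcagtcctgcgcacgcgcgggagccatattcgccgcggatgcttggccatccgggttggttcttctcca

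Over these windows, TGACNNNGC was found in 5 of 28 proteasome genes (17.9%) and in 11.5% of all 27025 genes with a promoter. The 5 were Psmb5, Psmb6, Psmc6, Psmd9 and Psmd12, and their median wild type difference was −0.66, as was that of the 23 without it. The ETS core CCGGAAG was found in 9 genes (32.1%) against 7.83% of all genes. It was held by Psma6, Psmc1, Psmc2, Psmc6, Psmd2, Psmd4, Psmd6, Psmd11 and Psmd12, of which 8 belong to the 19S particle. Their medians were −0.80 between the wild types and −0.54 in STAT6 loss, against −0.59 and −0.44 without it. The share of 19S genes among the 28 was not computed. As deposited, the 19S particle also had a lower median than the core in both comparisons, so motif and particle were not told apart. The STAT motif TTCNNNGAA, and the same motif with 4 bases in its middle, were found in none of the 28, against 8.13% and 6.76% of all genes. GGGCGG was found in 17 (60.7% against 35.4%) and CCAAT in 11 (39.3% against 37.5%). Both strands were searched and motifs may overlap. The letters G and C made up 54.6% of the median proteasome promoter and 52.4% of the median promoter. A match describes letters, not binding.

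Several other genes of the ubiquitin and proteasome pathway passed 2-fold, as did many genes outside it. Called in either direction were 11.5% of all genes tested in STAT4 loss and 26.5% in STAT6 loss. Between the wild types 33.5% were called, and between the deficient arrays 22.9%. Among 5 assembly chaperones of the core particle, Psmg1 read 8.75 and 10.14 in wild type and STAT4-deficient Th1 cells, and 10.44 and 10.66 in wild type and STAT6-deficient Th2 cells, so that Th1 wild type stood alone at the low end. Psmg4 differed by 1.53 without STAT6 and was the other called gene of that list in a loss. Between the wild types the list was split, with Psmg1 (−1.70) and Psmg2 (−1.27) lower in Th1 and Psmg4 higher (1.19). Pomp, which encodes the maturation factor of the beta ring, stayed within 0.37 of wild type in both losses. The 4 measured activator and inhibitor genes (Psme1, Psme3, Psme4 and Psmf1) had no call in any comparison.

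Of 8 other 19S subunits and associated proteins, Uchl5, which encodes a deubiquitinase of the 19S base, differed by −1.46 without STAT6 and by −1.89 between the wild types (Th1 minus Th2). It read 9.13, 9.01, 11.02 and 9.56, with Th2 wild type apart. Ubqln4, a ubiquitin shuttle gene, was 1.04 higher without STAT6. Ube3c, for a ubiquitin ligase, differed by −1.43 between the wild types. Usp14, the other deubiquitinase, was not called in any comparison. Sem1, the smallest lid subunit, read 11.82, 11.74, 11.41 and 11.93 and was lowest in Th2 wild type cells. Of the 8 genes, 1 was called higher and 1 lower in STAT6 loss, against 7.01% and 19.5% of all genes. Between the wild types 2 were called, both lower, against 25.4% of genes.

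Of 6 regulators, Nfe2l1 read 9.49 and 9.93 in wild type and STAT4-deficient Th1 cells, and 10.09 and 10.03 in wild type and STAT6-deficient Th2 cells, lowest in Th1 wild type cells and never called. Nfe2l2, which encodes the oxidative stress factor NRF2, read 11.27, 9.33, 8.53 and 8.54. It differed by −1.94 without STAT4 and by 2.74 between the wild types, the opposite direction to most proteasome genes. Ngly1, which encodes the deglycosylase that activates the Nfe2l1 product, differed by −1.42 without STAT6 and by −1.39 between the wild types. Sel1l and Syvn1, for the ligase of the endoplasmic reticulum degradation pathway, differed by −1.84 and −1.68 between the wild types, and Sel1l by −1.01 without STAT6. Vcp, for the p97 unfoldase, differed by −0.67 without STAT6 and by −0.83 between the wild types. Of the 6 regulators, 1 was called lower in STAT4 loss (5.34% of all genes) and 2 in STAT6 loss (19.5%). Between the wild types 3 were called lower (25.4%) and 1 higher (8.14%). All 6 measured p97 complex genes were below wild type in STAT6 loss, with a median of −0.67 and 1 call, Ubxn1 (−1.21). Of all genes tested there, 65.7% were below, with a median of −0.30, and 19.5% were called lower. The 3 measured ubiquitin supply genes had medians of 0.34 in STAT4 loss, −0.26 in STAT6 loss and −0.85 between the wild types. Among them Usp5 was called lower between the wild types, as were 25.4% of all genes.

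**Figure D5:**
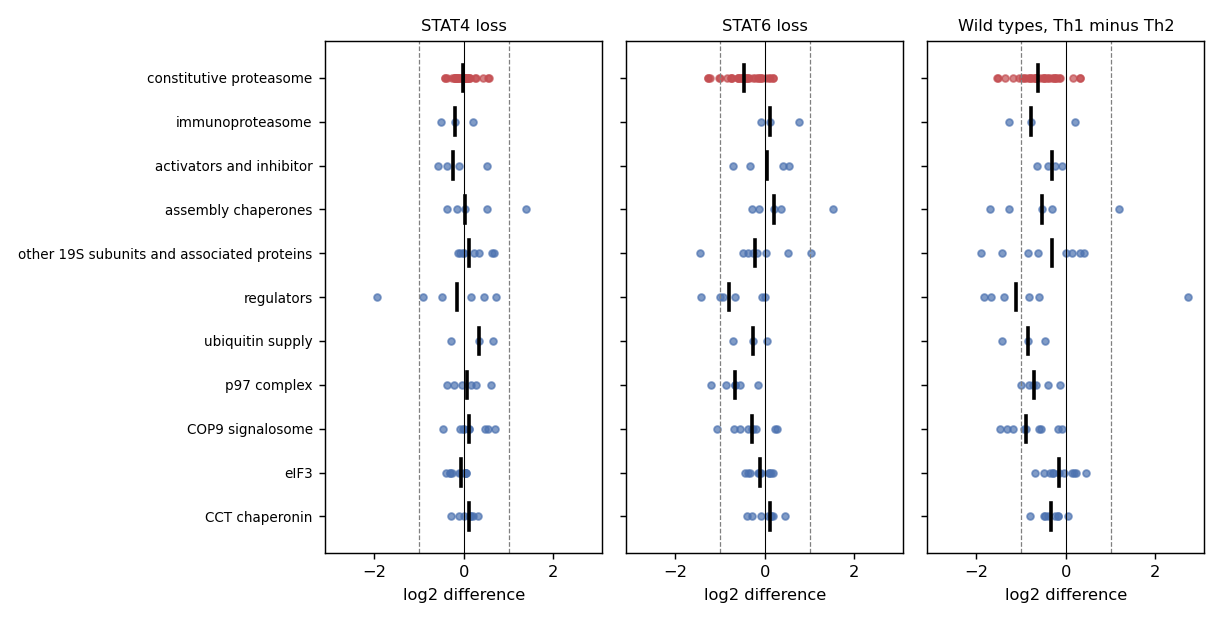
Log2 differences of the constitutive proteasome genes (red) and of related gene lists (blue) at the level minimum in 3 comparisons; each point is a gene, black bars are list medians and dashed lines mark 2-fold. Vcp and Usp14 belong to 2 lists each. The proteasome points lie between −0.42 and 0.57 in STAT4 loss, and the point far right in the wild type panel is Nfe2l2 at 2.74.

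The genes whose 4 values were most like the median profile of the proteasome genes were found among 9432 other genes at the minimum on all arrays. Each value was taken relative to its array's median gene and to the gene's own mean. The proteasome profile was −0.08, −0.30, 0.30 and 0.15. The 10 nearest, by root mean square distance over the 4 arrays, were Aup1 (0.03), Fbxo3, Eif1ad, Ubqln2, Pex16, Ttll5, Pdhb, Osbpl11, Sephs1 and Prdm11 (0.04). The median distance was 0.19 for the proteasome genes themselves and 0.39 for the other genes. The profile was made from the proteasome genes, so their smaller distance follows in part from the method. The other genes were not matched to them for level. The likeness rests on 4 points and is given as a description.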

How the data were processed

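Total RNA of 4 samples was hybridised to Affymetrix mouse expression arrays. The authors deposited 1 log2 value for each probe set, obtained with RMA (which corrects background and summarises probes), per the submitters' processing notes, which name no version. Joint normalization is not stated. Each array held only 3338 to 4007 distinct values among 45101 probe sets. The wild type arrays had 1471 of these in common, other pairs of arrays at most 5, and the array medians ran from 5.63 to 6.01. Of 45037 non-control probe sets, 34945 had 1 annotated gene, 932 several and 9160 none; symbols were updated through RefSeq (GRCm38.p6). A genome build used by the authors is not given in the sources used here.

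From these values log2 differences, calls at 2-fold and list medians were computed in Python 3.11.15 with pandas 2.3.3, beside the same over all genes tested; the scripts were tested on simulated data. No p-value was possible with 1 array per group, whose number limits the precision. Alternatives were median centring, loess (statsmodels 0.14.6), quantile normalization, centring on 9 hybridization control probe sets, the mean of probe sets, a 1.5-fold limit and other level minimums. All members could be named; every called member, the 3 highest and 3 lowest per comparison, members whose probe sets disagreed by 1 log2 unit and the catalytic and ubiquitin-handling subunits were always named, and other genes came from 10 lists. The members and lists were chosen with earlier results of these data known. Motifs, the 19S against 20S contrast and the highest-array count were added after the values were seen.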

Additional observations from a re-analysis of the deposited data

Results flagged for a closer look

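Some values stood apart from the main comparisons. Psmd1 and Psmd6 lay on opposite sides of wild type in the losses: Psmd1 was 0.53 above wild type without STAT4 and differed by −0.74 without STAT6, and Psmd6 by 0.43 and −0.75. They were picked out because each value as deposited exceeded the SD between bright probe sets of a proteasome gene (0.32 in STAT4 loss, 0.44 in STAT6 loss). After median centring Psmd1 differed by 0.37 and −0.43, and Psmd6 by 0.26 and −0.45, so neither exceeded the SD in both losses. The SD is a technical spread within the same arrays and holds no variation between cultures. The difference between the losses was not tested. The other probe set of Psmd6 differed by −0.25 and −0.20.

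The probe sets that were not the main one of their gene were searched for higher signal only. Of these, 5 had signal at least 2-fold above Th2 wild type in STAT6-deficient cells, and none did so in STAT4 loss. The share among such probe sets of all genes was not computed. Probe sets of Psmc6 (−2.01) and Psmd4 (−1.27), also not the main ones, passed 2-fold in the other direction in STAT6 loss. For Psmd9 a dim probe set read 3.91 in Th2 wild type and 7.51 in STAT6-deficient cells (3.60), where its main probe set differed by −0.49. Among the same 5 probe sets, those of Psma6 and Psmd7 differed by 2.01 and 1.94, and those of Psma1 and Psma5 by 1.06 and 1.01. The main probe sets of these 4 genes differed by 0.11, −1.23, −0.27 and 0.19 in that order. Actin RNA on that array read 2.08 log2 units higher at its 3′ end, whose part in these values was not tested.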

How the results depend on the processing

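No paired analysis was possible because each group has 1 array with no replicate number, and none could be left out within a group. In STAT4 loss no proteasome gene was called under any alternative, and the median of −0.01 became −0.18 (median centring), 0.16 (loess), 0.23 (quantile normalization) and 0.38 (hybridization controls). The median of all genes there moved from 0.13 to −0.04, 0.02, 0.07 and 0.515 in that order. In STAT6 loss the median was −0.16, −0.28, −0.31 and −0.61 under these scalings in that order, and −0.32 with the mean of probe sets. The 5 lower genes (19.5% of all genes) became 0 after median centring (12.1%), 0 after loess (12.2%), 1 after quantile normalization (12.3%), 3 with the mean of probe sets (17.8%) and 12 at 1.5-fold (35.2%). Between the wild types the median was −0.38, −0.24, −0.29 and −0.999 under the 4 scalings, and −0.47 with the mean of probe sets. The 5 lower genes (25.4% of all genes) became 3 (18.8%), 1 (14.1%), 1 (14.1%) and 17 (39.3%) under the scalings in that order, and 18 at 1.5-fold (40.9%). Between the deficient arrays the median was −0.42 after median centring, 0.0349 after loess, 0.0565 after quantile normalization and −0.0309 with hybridization controls. Calls there went from 0 to 1 higher after loess (6.87% of all genes) and with no level minimum (15.6%), 2 higher after quantile normalization (10.2%), 3 higher (25.4%) and 3 lower (22%) at 1.5-fold, and 2 lower with the mean of probe sets (7.95%).

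Some group medians changed sign. In STAT4 loss, after loess, quantile normalization and hybridization controls in that order, that of the lid (−0.11) became 0.0729, 0.18 and 0.28. Medians that lay nearer 0 turned too, to 0.24, 0.34 and 0.38 for the alpha ring, 0.20, 0.29 and 0.38 for the beta ring, 0.0924, 0.17 and 0.34 for the ATPases, 0.21, 0.29 and 0.38 for the whole core and 0.15, 0.22 and 0.36 for the 19S particle. That of the assembly factors turned to 0.38 with hybridization controls. The mean of probe sets turned the medians of the alpha ring, the ATPases, the assembly factors, the core and the 19S particle to between 0.0102 and 0.0896. In STAT6 loss median centring gave 0.0907 for the alpha ring, 0.0359 for the lid and 0.0636 for the whole core. The mean of probe sets gave 0.29 for the alpha ring and 0.30 for Psmd7. Between the wild types loess gave 0.0160 for the beta ring and 0.0316 for the assembly factors. Between the deficient arrays loess and quantile normalization gave 0.0830 and 0.0913 for the ATPases, 0.19 and 0.21 for the lid, 0.0348 and 0.0578 for the assembly factors, 0.17 and 0.18 for the 19S particle, and 0.23 and 0.22 for the other base genes (−0.09 as deposited), which hybridization controls and the mean of probe sets turned to 0.0682 and 0.0993. Quantile normalization gave 0.0140 for the alpha ring, and hybridization controls gave 0.0410 for the lid and 0.0072 for the 19S particle. The cause was not tested. In alternatives chosen after seeing the data, Th2 wild type was the highest array for 19 of 34 genes after median centring (35.3% of all genes), 21 after quantile normalization (29.4%), 29 with hybridization controls (56.4%), 21 with the mean of probe sets (46.8%) and 31 without the Th2 STAT6-deficient array (59.9%).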

Other observations

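Related complexes on the same arrays gave these values. The COP9 signalosome and the initiation factor eIF3 are built like the proteasome lid. All 9 COP9 genes were lower in Th1 than in Th2 wild type cells, with a median of −0.90 and 3 calls: Cops6 (−1.47), Cops7a (−1.32) and Cops3 (−1.18). Of all genes tested, 65.4% were lower in Th1, with a median of −0.37, and 25.4% were called lower. In STAT6 loss the COP9 median was −0.29, against −0.30 for all genes. Cops3 was called there (−1.07), where 19.5% of genes were called lower. The 11 measured eIF3 genes had no call in any comparison, with medians of −0.06 in STAT4 loss, −0.11 in STAT6 loss and −0.14 between the wild types. The 8 genes of the CCT chaperonin, which folds actin and tubulin, had none either, with medians of 0.12, 0.11 and −0.32. Over all genes tested the medians were 0.13, −0.30 and −0.37 in that order. Called in either direction were 11.5%, 26.5% and 33.5% of genes in these comparisons, and 22.9% between the deficient arrays.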
